A study of Mus musculus with 24 samples.

Results

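Axon guidance genes encode cell surface and secreted proteins that tell a growing axon, vessel or migrating cell where to go. Semaphorins are read by plexins, alone or together with neuropilins, ephrins are read by Eph receptors on the neighbouring cell, Slits by Robos, and netrins by Dcc, Neo1 and the Unc5 proteins. In adult muscle these proteins are found on motor nerve endings and Schwann cells, on endothelium and on the muscle fibres themselves, and bulk RNA sees all of those cells at once.

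The guidance genes described here were chosen by name. They are the protein-coding genes whose symbols mark a semaphorin, a plexin, an EphA or EphB receptor, an ephrin, a Slit, a Robo or an Unc5 subtype, together with Ntn1, Ntn4, Nrp1, Nrp2, Dcc and Neo1. The rule found 68 genes among 55416 annotated features. They comprise 20 semaphorins, 9 plexins, 2 neuropilins, 8 ephrins, 9 EphA and 5 EphB receptors, 3 Slits, 4 Robos, 2 netrins and 6 netrin receptors. The Slitrk genes, the antisense transcripts of Plxna4, Unc50 and Unc5cl share letters with the rule but are no guidance subtypes, and they were left out.

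RNA was sequenced from the skeletal muscle of 24 mice, 6 in each of 4 groups. Small mouse cage (SMC) mice lived for 8 weeks in a box that limits spontaneous movement, and sham mice stayed ambulatory. Both housings were given to males and to females, and all mice were wild-type animals of 1 inbred strain, written C56BL6J in the labels and named C57BL/6J in the study. The muscle was the gastrocnemius, a mostly fast-twitch calf muscle, taken after a short fast, and each library came from 1 mouse. The study describes the mice as bought at 8 weeks of age. It kept sham and SMC mice in shared cages in some experiments and apart in others, and which holds for these mice is not given. The question of the series was how this restriction of movement alters muscle gene expression in each sex.

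The libraries held between 23026627 and 36880413 counts. Fast fibre markers were high in each of the 24 libraries, with a summed level between 78679 and 161532 counts per 1000000 (CPM). Neuron markers were near 0, with a sum of at most 9.37 CPM, and only 1 of 6 had enough counts to be tested. In 2 sham libraries the slow fibre markers were low. Their summed level was 86.6 CPM in male sham replicate 4 and 72.3 CPM in female sham replicate 7, while the other libraries held at least 709 CPM. Female sham replicate 11 held keratins of the skin. Its 9 skin genes, a list added after the data were seen, summed to 736 CPM, and in the other 23 libraries they summed to between 1.46 and 3.28 CPM. Of these genes Krt10 passed the test described below in females, with an SMC against sham log2 fold change of -6.62 (edgeR FDR 0.0497). This Krt10 value rests on 1 library and was not fitted without it. Krt10 stood at 294 CPM in female sham replicate 11 and at 0.112 to 0.729 CPM in the other female sham mice. Female SMC mice held 0.329 to 0.688 CPM. Several guidance gene results that rest on the sham libraries named here are given with and without them. In whole muscle, fewer cells of a type and less RNA per cell cannot be told apart.

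Of the 68 guidance genes, 57 had enough counts to be tested and 67 had a count in at least 1 library. The untested genes were Sema4f, Efna3, Efna4, Epha5, Epha6, Epha8, Epha10, Robo3, Unc5c, Unc5d and Dcc. Outside female sham replicate 11 none of these reached 1 CPM, with a highest value of 0.922 CPM. Epha8 had no count in any library.

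Levels between genes were compared per kilobase of exon, as the mean over the 4 groups. Of the 57 tested genes, 29 reached at least 1 CPM per kb. Sema6c, a transmembrane class 6 semaphorin, had the highest level at 17.5 ± 3.34 CPM per kb (SD over 24 mice). Next came Sema4d, a ligand of plexin-B1, at 9.95 ± 1.64 CPM per kb, and Plxnd1, the receptor that reads Sema3e on endothelium, at 9.40 ± 1.57 CPM per kb. Sema3c, a secreted class 3 semaphorin, followed at 8.50 ± 0.901 CPM per kb, and Neo1, a receptor of netrins and of repulsive guidance molecules, at 7.51 ± 0.670 CPM per kb.

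Part of that order was firm within mice. Sema6c lay above Sema4d in 23 of 24 mice, Sema3c above Neo1 in 22 of 24 and Neo1 above the next gene, Ephb4, in 24 of 24. Sema4d lay above Plxnd1 in 11 of 24 mice and Plxnd1 above Sema3c in 13 of 24, so neither of these neighbouring pairs differed beyond its spread, while Sema4d lay above Sema3c in 19 of 24. Ephb4, the ephrin-B2 receptor of venous endothelium, had 5.67 CPM per kb. Slit3, Sema7a, Plxna1, Nrp1, Robo4 and Unc5a lay from 4.81 CPM per kb up to the level of Slit3, the highest of them, with no order that held across the mice.

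The families differed in how many members were expressed. At least 1 CPM per kb was reached by 11 of 19 tested semaphorins, 4 of 9 plexins, 2 of 2 neuropilins, 3 of 6 ephrins, 1 of 5 EphA receptors (Epha2), 1 of 5 EphB receptors (Ephb4), 1 of 3 Slits (Slit3), 1 of 3 Robos (Robo4), 2 of 2 netrins and 3 of 3 netrin receptors. Of the tested genes, 6 stayed under 0.1 CPM per kb.

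**Figure D1:**
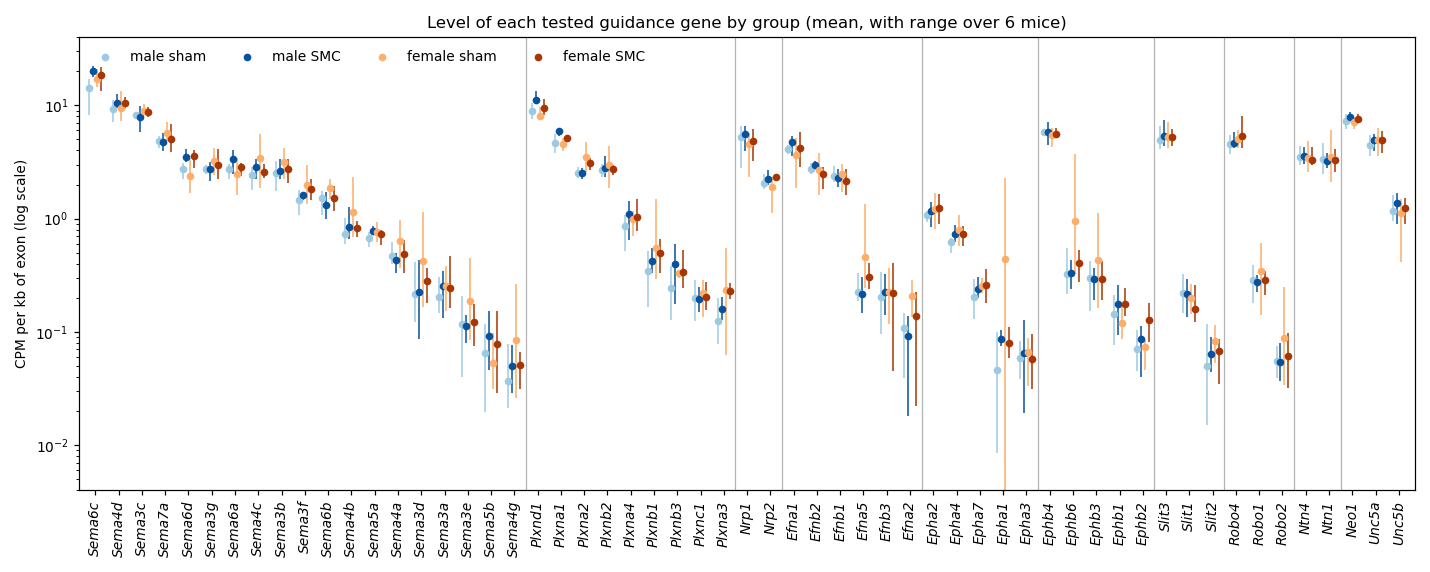
Level of each of the 57 tested guidance genes in CPM per kb of exon on a log scale, ordered by family and then by level. Points are group means and lines the range over 6 mice, and the line of Epha1 in female sham mice runs off the foot of the axis because 1 mouse had no count. Sema6c is highest at 17.5 CPM per kb, and the tall female sham lines of Epha1, Ephb6, Efna5 and Sema3d end at 1 mouse.

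Promoters are shown for the genes on which the comparisons below turn, to give their sequence context. RefSeq starts on GRCm38.p6 were found for 58 of the 68 guidance genes, and each window spans 250 bases before to 50 after a start. This build differs from that of the counts and serves for the sequences only. Plxna1 has no entry. Capitals mark the GC box, GGGCGG on either strand, and in Sema6c 2 of its 3 copies share letters.

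Sema6d, chr2:124089719-124090018, plus strand, first of 2 starts: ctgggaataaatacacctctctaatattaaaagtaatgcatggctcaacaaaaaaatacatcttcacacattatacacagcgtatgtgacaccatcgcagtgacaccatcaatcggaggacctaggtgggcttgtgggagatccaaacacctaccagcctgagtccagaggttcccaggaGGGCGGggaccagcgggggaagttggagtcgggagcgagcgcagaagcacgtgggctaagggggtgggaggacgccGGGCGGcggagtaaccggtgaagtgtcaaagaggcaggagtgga
Sema6c, chr3:95160170-95160469, plus strand, first of 2 starts: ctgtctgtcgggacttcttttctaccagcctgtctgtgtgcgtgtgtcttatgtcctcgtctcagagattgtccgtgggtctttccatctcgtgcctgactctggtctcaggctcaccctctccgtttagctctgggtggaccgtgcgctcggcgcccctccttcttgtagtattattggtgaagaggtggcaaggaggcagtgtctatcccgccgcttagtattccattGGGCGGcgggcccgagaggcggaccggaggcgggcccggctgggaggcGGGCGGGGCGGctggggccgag
Plxnd1, chr6:115994956-115995255, minus strand: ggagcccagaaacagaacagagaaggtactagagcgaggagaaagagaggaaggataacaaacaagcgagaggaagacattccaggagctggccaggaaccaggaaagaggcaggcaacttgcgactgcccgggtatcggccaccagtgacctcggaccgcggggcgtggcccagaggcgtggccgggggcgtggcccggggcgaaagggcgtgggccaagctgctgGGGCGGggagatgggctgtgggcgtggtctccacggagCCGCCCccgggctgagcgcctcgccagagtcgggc
Plxna2, chr1:194619579-194619878, plus strand: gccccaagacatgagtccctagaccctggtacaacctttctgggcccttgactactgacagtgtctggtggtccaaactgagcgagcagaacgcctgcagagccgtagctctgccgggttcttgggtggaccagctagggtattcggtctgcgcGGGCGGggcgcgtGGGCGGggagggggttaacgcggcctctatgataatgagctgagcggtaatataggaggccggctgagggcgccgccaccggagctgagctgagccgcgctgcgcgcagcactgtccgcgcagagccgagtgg

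The guidance genes had GC-rich promoters. The median GC content was 64.3% over their 74 windows and 52.7% over all 32851 windows in the table. The GC box was present in 71.6% of the windows of guidance genes and in 35.7% of all windows, the TATAAA box in 2.7% and 13.6%, and the E-box CANNTG in 50% and 72.3%. Each of the 4 promoters printed above holds a GC box, and the second starts of Sema6d and Sema6c hold none. The MEF2 site, bound by a muscle transcription factor, was in 1.35% of the windows of guidance genes and in 1.86% of all, and the CArG box in 2.7% and 1.63%. Of the 74 windows 1 holds the MEF2 site, the first Sema6d start printed above, where it is not in capitals. These matches describe letters in a window and are not evidence of binding.

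SMC housing was compared with sham housing over both sexes, within each sex, and between the sexes, in 1 model of all 16408 tested genes. Averaged over the sexes, 3 guidance genes passed a false discovery rate (FDR) of 0.05, and all 3 were higher in SMC mice. They were Sema6d, Plxna1 and Plxnd1, a semaphorin and a pair of semaphorin receptors. Over all genes 388 passed, which is 2.36%. At an unadjusted p under 0.05 there were 10 guidance genes of 57, or 17.5%, and the share over all genes was the same at 17.5%. Of the 57, 30 (52.6%) were higher in SMC mice, with a median log2 fold change of 0.01, where 47.6% of all genes were higher. Without female sham replicate 11, 2 passed (Sema6d and Plxna1) and 39 were higher, with a median of 0.07. In that fit 342 of 16531 genes passed and 48.4% of all genes were higher. Without the 2 libraries low in slow fibre markers 2 passed as well, where 526 of 16557 genes did. There 25 of the 57 were higher, with a median of -0.02, where 47.2% of all genes were.

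Sema6d, a transmembrane semaphorin that binds plexin-A1, gave the clearest response to SMC. In males it ranged from 23.8 to 32.9 CPM in sham mice (median 29.3) and from 33.2 to 43.2 CPM in SMC mice (median 36.7). Every male SMC mouse lay above every male sham mouse. In females it ranged from 17.8 to 35.1 CPM in sham mice (median 24.05) and from 29.7 to 43.0 CPM in SMC mice (median 38.8), where 4 of 6 SMC mice lay above every sham mouse. Averaged over the sexes Sema6d rose 1.39-fold (log2 0.48, SE 0.088, edgeR FDR 0.0074). In the same model of 24 libraries the female contrast also passed at 1.51-fold (log2 0.59, SE 0.125, FDR 0.0447), while in males the log2 fold change was 0.36 (SE 0.124, FDR 0.281). The averaged call held in each of 24 fits that left out 1 mouse, with an FDR between 0.00147 and 0.0169. Over these fits the male log2 fold change was lowest, at 0.30, without male sham replicate 4. The female one was lowest, at 0.51, without female sham replicate 7. Both are libraries low in slow fibre markers.

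The female call of Sema6d was less firm. It was lost in a fit of the 12 female libraries alone (log2 0.59, FDR 0.160) and by limma (log2 0.54, FDR 0.0551). Of the fits that left out 1 mouse, it held in 5 of 24, those without male sham replicate 4, female sham replicates 9 or 12, male SMC replicate 14 or female SMC replicate 21. In the other fits the FDR reached up to 0.110. Without the skin-bearing female sham replicate 11 the log2 fold change was 0.55 (FDR 0.0744). The difference between the male and female responses of Sema6d was -0.23 (SE 0.176, FDR 0.980).

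Plxna1, the plexin-A1 receptor that reads class 6 semaphorins and, with neuropilins, class 3 semaphorins, rose 1.19-fold over both sexes (log2 0.25, SE 0.0566, FDR 0.0195). Male sham mice held 34.2 to 50.1 CPM of Plxna1 (median 42.5) and male SMC mice 48.3 to 57.6 CPM (median 54.6). Female sham mice held 35.9 to 47.1 CPM (median 41.9) and female SMC mice 44.7 to 48.8 CPM (median 45.6). In each sex 5 of 6 sham mice lay below every SMC mouse. The log2 fold change was 0.35 in males (SE 0.0801, FDR 0.093) and 0.15 in females (SE 0.0801, FDR 0.440). The averaged call of Plxna1 held in 24 of 24 fits that left out 1 mouse.

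Plxnd1, the plexin-D1 receptor known for its role in vessel patterning, rose 1.21-fold over both sexes (log2 0.28, SE 0.0713, FDR 0.0382). Its level was 55.4 to 76.7 CPM in male sham mice (median 64.6) and 74.9 to 98.1 CPM in male SMC mice (median 77.6). In females it was 54.2 to 70.9 CPM in sham mice (median 55.5) and 60.0 to 82.6 CPM in SMC mice (median 66.9). The groups overlapped in both sexes, with 3 of 6 SMC mice above every sham mouse in each. This call held in only 9 of 24 fits, those without male sham replicates 3, 5 or 6, female sham replicates 9 or 12, male SMC replicate 14 or female SMC replicates 19, 20 or 23. It was weakest without male SMC replicate 17 (log2 0.24, FDR 0.0767), and without female sham replicate 11 the log2 fold change was 0.27 (FDR 0.0643).

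The other class 6 semaphorins were measured beside Sema6d. Sema6c, the most abundant guidance gene, ranged from 49.0 to 101 CPM in male sham mice (median 89.2) and from 105 to 132 CPM in male SMC mice (median 122), again without overlap. In females the ranges were 86.7 to 125 CPM in sham mice (median 96.1) and 78.9 to 130 CPM in SMC mice (median 115), and they overlapped broadly. The log2 fold change of Sema6c was 0.50 in males (SE 0.136, FDR 0.170), 0.14 in females (SE 0.136, FDR 0.752) and 0.32 over both (SE 0.0961, FDR 0.0747). None of these passed. The male value was 0.37 without male sham replicate 4, the lowest mouse and one of the libraries with little slow fibre RNA.

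Sema6a, a ligand of plexin-A2 and plexin-A4, held 19.7 to 26.8 CPM in male sham mice (median 24.1) and 21.7 to 35.4 CPM in male SMC mice (median 31.4). Female sham mice held 14.2 to 29.8 CPM (median 21.4) and female SMC mice 21.1 to 27.2 CPM (median 26.0). The values overlapped in both sexes and the averaged log2 fold change was 0.26 (SE 0.0921, FDR 0.123). Sema6b, another class 6 ligand, had an averaged log2 fold change of -0.25 (SE 0.118, FDR 0.264), opposite in sign to the other 3.

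Male mice showed 2 guidance genes without overlap between housings, Sema6c and Sema6d, and in both every SMC library lay above every sham library. The same was true of 97 of all genes, or 0.591%. No guidance gene passed the FDR in males by edgeR, where 0% of all genes passed. At an unadjusted p under 0.05 there were 7 guidance genes (12.3%), all higher in SMC mice, against 11% of all genes. DESeq2 called 2, Plxna1 (FDR 0.00998) and Sema6c (FDR 0.0461), and 0.811% of all genes. Of the 57 genes 42 had a log2 fold change above 0, or 73.7%, with a median of 0.12, where 49.1% of all genes did.

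The 7 genes with an unadjusted p under 0.05 in males were 4 semaphorins and 3 plexins. The summed semaphorin level was 327 to 390 CPM in male sham mice and 405 to 435 CPM in male SMC mice, and the summed plexin level 172 to 210 CPM and 209 to 254 CPM. The mean semaphorin sum was 359 CPM in male sham and 421 CPM in male SMC mice, of which Sema6c alone made up 84.3 and 119 CPM, and 14 of 19 semaphorins were higher. These sums were not tested. In females the semaphorin sums overlapped, at 361 to 435 CPM in sham and 394 to 435 CPM in SMC mice. Among the male values Plxnb3, a plexin of oligodendrocytes in the brain, had a log2 fold change of 0.70 (SE 0.248, FDR 0.283), with 0.828 to 2.46 CPM in sham mice (median 1.53) and 1.15 to 3.84 CPM in SMC mice (median 2.699).

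**Figure D2:**
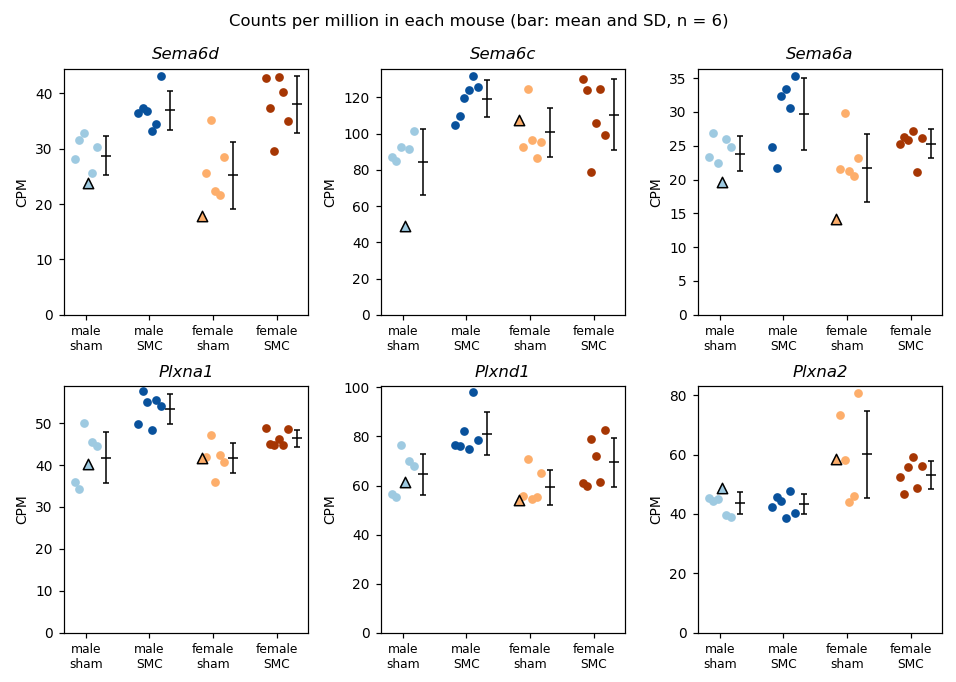
CPM in each mouse for 3 class 6 semaphorins and 3 plexins, with the mean and SD of 6 mice beside each group, and triangles for male sham replicate 4 and female sham replicate 7, the libraries low in slow fibre markers. Male SMC mice lie above all male sham mice for Sema6d and Sema6c, and male mice lie lower than most female mice for Plxna2.

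Female mice had 1 guidance gene past the FDR, Sema6d, where 56 of all genes, or 0.341%, passed. At an unadjusted p under 0.05 there were 8 (14%), 5 higher and 3 lower in SMC mice, against 12.5% of all genes. In females 22 of the 57 guidance genes, or 38.6%, were above 0 with a median of -0.08, where 47.6% of all genes were. Without female sham replicate 11 the count above 0 was 30 of 57 and the median 0.02, on the other side of 0. Of all genes 49.1% were above 0 in that fit. Without the 2 libraries low in slow fibre markers the count was 17 of 57 and the median -0.12, where 48.4% of all genes were above 0.

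EphB receptors, which read ephrin-B ligands in both directions at cell contacts, had 3 members with an unadjusted p under 0.05 in females, Ephb2 and Ephb1 higher in SMC mice and Ephb6 lower. The value of Ephb6 rests on 1 mouse and is given with that mouse. Ephb2 ranged from 0.585 to 1.08 CPM in female sham mice (median 0.990) and from 1.03 to 2.27 CPM in female SMC mice (median 1.62), where 5 of 6 lay above every sham mouse. The female log2 fold change was 0.79 (SE 0.242, FDR 0.134) and 0.28 in males (SE 0.247, FDR 0.738), where the range was 0.573 to 1.31 CPM in sham and 0.499 to 1.42 CPM in SMC mice. For Ephb1 the female value was 0.57 (SE 0.260, FDR 0.358). At about 1 CPM both receptors were scarce in this muscle, and neither passed. Averaged over the sexes Ephb2 had an edgeR FDR of 0.0961, and it passed by DESeq2 (FDR 0.0449), which called 4.74% of all genes in that comparison.

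Nrp2, a co-receptor of class 3 semaphorins, ranged from 13.4 to 27.4 CPM in female sham mice (median 24.2) and from 26.2 to 29.1 CPM in female SMC mice (median 27.9). Its female log2 fold change was 0.29 (SE 0.119, FDR 0.296), and 0.18 without female sham replicate 7, the lowest mouse. For Nrp1, the other neuropilin, the values were 0.10 for females (SE 0.193) and 0.06 for males (SE 0.193).

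The vascular pair of Ephb4 and its ligand Efnb2 did not pass. The averaged log2 fold change was 0.01 for Ephb4 (SE 0.0717, FDR 0.946) and -0.01 for Efnb2 (SE 0.101, FDR 0.983). Robo4, the endothelial Robo, had 0.04 (SE 0.0981) and Slit3 0.05 (SE 0.101). Of the most abundant genes, Sema4d had medians of 72.9 CPM in male sham, 81.1 in male SMC, 65.2 in female sham and 79.1 CPM for female SMC mice, and an averaged log2 fold change of 0.16 (FDR 0.382). The medians of Sema3c were 60.5, 56.6, 61.6 and 64.0 CPM in the same order, with -0.04 (FDR 0.790), and those of Neo1 61.7, 68.9, 64.9 and 65.8 CPM, with 0.10 (SE 0.0536, FDR 0.326). The groups of all 3 genes overlapped. In the edgeR fit of all 24 libraries none of the neuropilins, Eph receptors, ephrins, Slits, Robos, netrins or netrin receptors passed in any housing comparison.

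**Figure D3:**
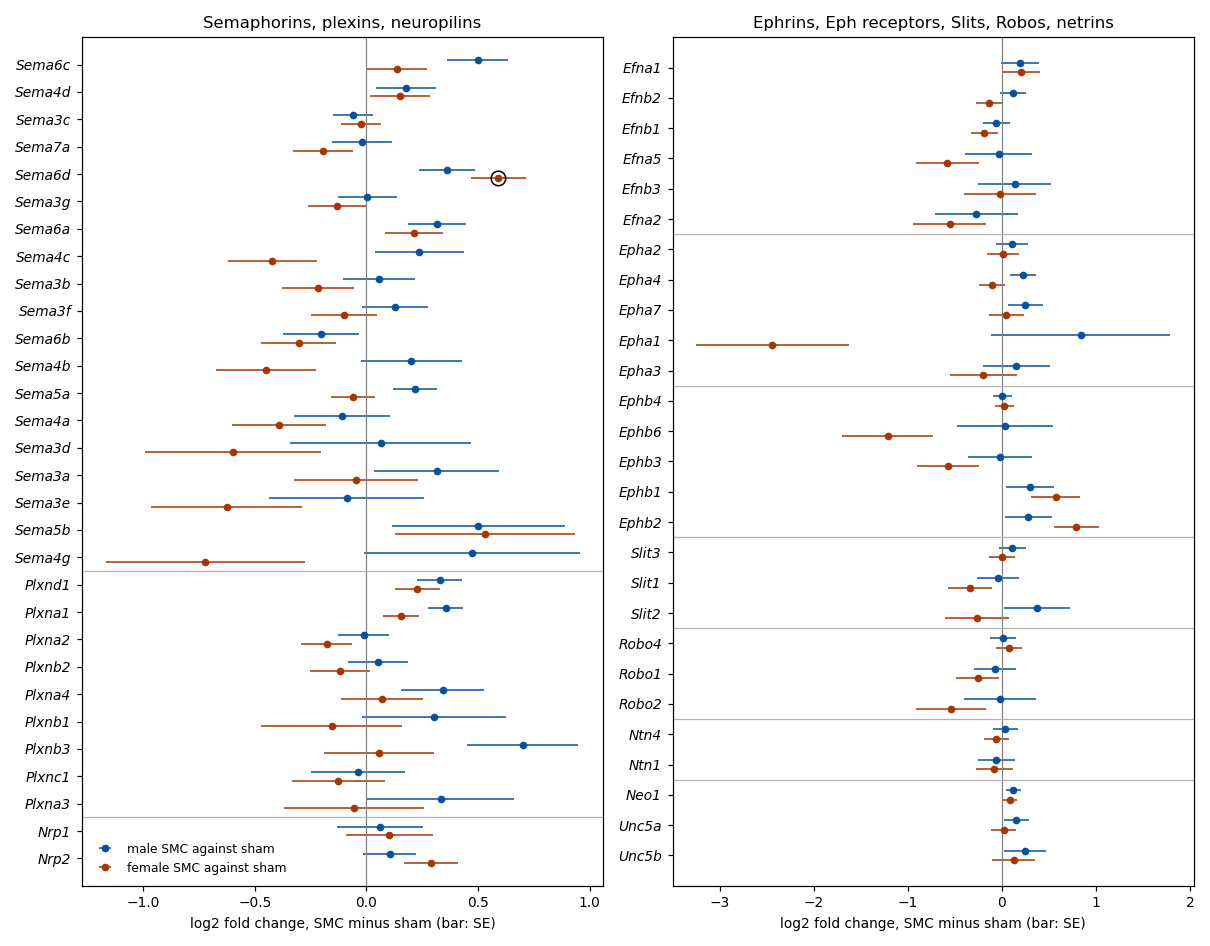
Log2 fold change of SMC against sham with its SE for each tested guidance gene in males and in females, with semaphorins, plexins and neuropilins on the left and the other families on the right (the 2 panels have different scales). The circled point, Sema6d in females, is the only one past an FDR of 0.05 within a sex, and Epha1 in females reaches -2.44.

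The difference between the sexes in the SMC response was tested directly, as the male log2 fold change minus the female one. No guidance gene passed by edgeR (smallest FDR 0.926), by DESeq2 or by limma, where 0% of all genes passed by edgeR. At an unadjusted p under 0.05 there were 2 guidance genes (3.51%), Epha1 and Sema4c, against 5.13% of all genes. The difference was above 0 in 47 of 57 guidance genes, with a median of 0.19, where 51.6% of all genes were. Without female sham replicate 11 it was above 0 in 40 of 57, with a median of 0.12, and among all genes in 50.9%. Without the 2 libraries low in slow fibre markers it was above 0 in 50 of 57, with a median of 0.20, and among all genes in 49.2%. Male and female responses here have no mice in common.

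Sema4c, a transmembrane class 4 semaphorin that binds plexin-B2, had a male-minus-female difference of 0.66 (SE 0.282, FDR 0.946). It held 8.23 to 13.1 CPM in male sham (median 11.5), 10.25 to 15.3 CPM in male SMC (median 12.8), 8.54 to 25.9 CPM in female sham (median 14.9) and 10.5 to 13.96 CPM among female SMC mice (median 11.5). Female sham mice were the most spread. The difference for Epha1 was 3.28 (SE 1.25, FDR 0.926) and 0.68 without female sham replicate 11.

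Female sham replicate 11 stood apart for the guidance genes more than for genes in general. It was the highest of 24 libraries for 18 of 57 tested guidance genes (31.6%) and for 8.18% of all tested genes. It exceeded the next library more than 2 times for 10 of the 57 (17.5%) and for 1.37% of all genes. No other library did so for any tested guidance gene. With the untested genes included, it was highest for 24 genes and above 2 times the next for 14.

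Of these 14 genes, 6 are Eph receptors or ephrins (Epha1, Ephb3, Ephb6, Efna3, Efna4 and Efna5). The others are Sema3d, Sema3e, Sema4g, Plxna3, Plxnb1, Robo2, Robo3 and Dcc. Robo3 and Dcc were near 0, with 15 and 24 counts in all 24 libraries together. In female sham replicate 11 Robo3 stood at 0.251 CPM against at most 0.0642 CPM elsewhere, and Dcc at 0.359 against 0.105 CPM. Epha1, an EphA receptor known from skin, stood at 8.94 CPM in this mouse and at 0 to 0.447 CPM in the other 23. Ephb6, a receptor without kinase activity, stood at 14.1 CPM against at most 2.07 CPM elsewhere. Efna3, an ephrin-A ligand too scarce to be tested, stood at 4.24 CPM against at most 0.167 CPM, and Efna5, another ephrin-A ligand, at 5.42 CPM against at most 1.65 CPM. Ephb3 stood at 7.43 against 2.81 CPM, Sema3d at 9.84 against 3.73 CPM, Robo2 at 4.24 against 1.66 CPM and Plxnb1 at 14.1 against 6.29 CPM. In this same mouse the keratins Krt5 and Krt10 had 3824 and 8180 counts, while in the other 23 libraries Krt5 had at most 12 and Krt10 at most 21. The part of skin RNA in the guidance gene values was not tested.

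The female contrasts of Epha1 and Ephb6 turned on that mouse. For Epha1 the female SMC log2 fold change was -2.44 (SE 0.810, FDR 0.172) with it and 0.16 (FDR 0.941) without it. Ephb6 had -1.21 (SE 0.485, FDR 0.277) with it and 0.06 (FDR 0.957) without it. Female sham mice other than replicate 11 had 0.271 ± 0.165 CPM of Epha1 and 1.48 ± 0.240 CPM of Ephb6 (SD, n = 5), and female SMC mice had 0.310 ± 0.0862 and 1.54 ± 0.387 CPM (SD, n = 6).

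**Figure D4:**
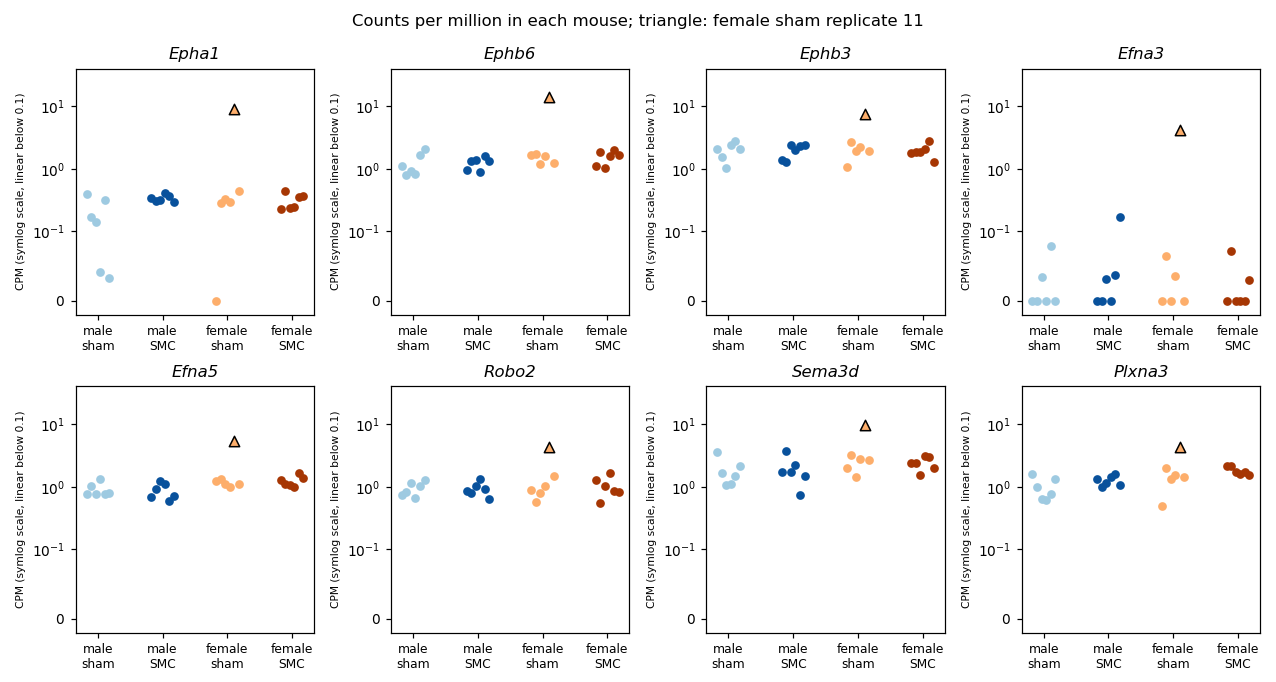
CPM in each mouse for 8 guidance genes on a symmetric log scale that is linear below 0.1, with female sham replicate 11 drawn as a triangle. In each panel this mouse is the highest of 24, from 4.24 CPM for Efna3 to 14.1 CPM for Ephb6, and the other mice of the 4 groups overlap.

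Baseline sex differences were tested as males minus females, averaged over sham and SMC housing. The 1 guidance gene to pass was Plxna2, the plexin-A2 receptor of Sema6a, where 809 of all genes, or 4.93%, passed. Males held less of it. Plxna2 ranged from 39.1 to 48.6 CPM in male sham mice (median 44.6), from 38.8 to 47.6 CPM in male SMC mice (median 43.4), from 44.0 to 80.8 CPM in female sham mice (median 58.3) and from 46.6 to 59.3 CPM in female SMC mice (median 54.0). The log2 difference was -0.38 (SE 0.0806, FDR 0.00565). It held in 24 of 24 fits that left out 1 mouse, and it was -0.41 (FDR 0.00184) without female sham replicate 11. Within sham mice alone the difference was -0.46 (FDR 0.0323) and within SMC mice alone -0.30 (FDR 0.307). The difference between the sexes in the SMC response of Plxna2 was 0.17 (SE 0.161, FDR 0.997).

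Averaged over housing, lower values in males were more frequent than higher ones. Of the 57 guidance genes 18 lay above 0, or 31.6%, where 49% of all genes did. In sham mice alone 15 of 57 lay above 0, with a median of -0.19, where 49.6% of all genes did. In SMC mice alone it was 27 of 57, with a median of -0.01, and 49.7% of all genes. At an unadjusted p under 0.05 the averaged comparison had 10 guidance genes (17.5%), 9 lower and 1 higher in males, against 19.3% of all genes. The 1 gene higher in males was Plxnd1, with a log2 difference of 0.17 (SE 0.0713, FDR 0.170). Efna5 had -0.78 (SE 0.247, FDR 0.0698), Plxna3, a receptor of Sema3f with Nrp2, -0.71 (SE 0.228, FDR 0.0741), Sema3f itself -0.31 (SE 0.104, FDR 0.0845), Ephb6 -0.92 (SE 0.353, FDR 0.140) and Efna2 -0.75 (SE 0.292, FDR 0.149). Without female sham replicate 11 these became -0.43 (Efna5), -0.48 (Plxna3), -0.24 (Sema3f), -0.28 (Ephb6) and -0.80 (Efna2), none with an FDR under 0.05.

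Without that mouse, 3 of these genes ranged as follows. Efna5 held 0.753 to 1.33 CPM in male sham (median 0.784), 0.590 to 1.22 CPM in male SMC (median 0.822) and 0.971 to 1.65 CPM in female SMC mice (median 1.19), and the 5 other female sham mice held 0.984 to 1.32 CPM. Plxna3 held 0.621 to 1.58 CPM in male sham (median 0.866), 1.003 to 1.59 CPM in male SMC (median 1.23), 1.53 to 2.14 CPM in female SMC (median 1.70) and 0.487 to 1.96 CPM in the 5 other female sham mice. Sema3f held 5.56 to 9.28 CPM in male sham (median 7.67), 7.64 to 8.94 CPM in male SMC (median 8.40), 7.59 to 11.6 CPM in female SMC (median 9.56) and 7.04 to 11.3 CPM in the 5 other female sham mice. Male and female ranges overlapped for all 3 genes.

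**Figure D5:**
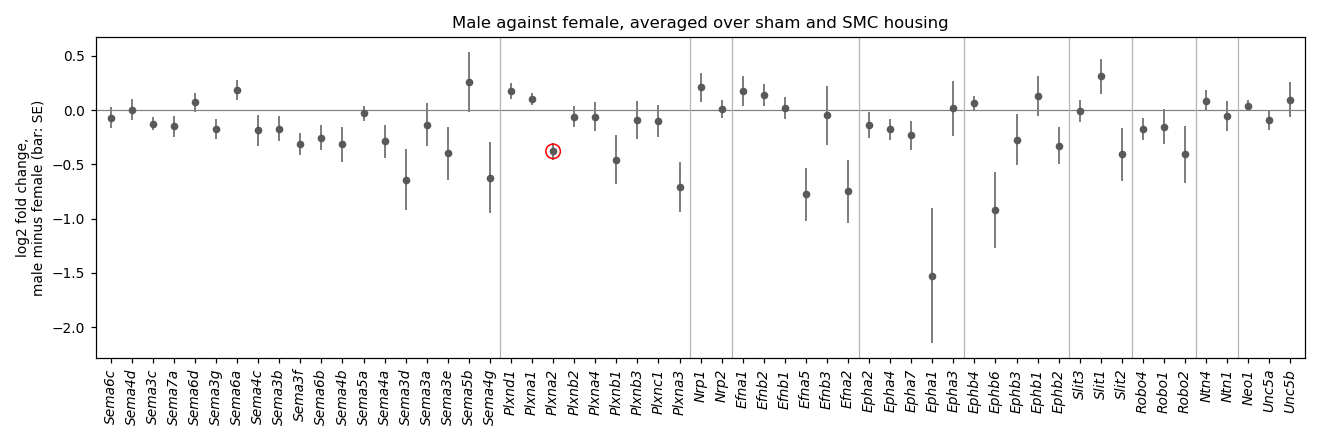
Log2 difference of males minus females, averaged over housing, with its SE for each tested guidance gene, ordered as in the plot of levels. Plxna2, circled, is the only gene past an FDR of 0.05 at -0.38, and 39 of 57 genes lie below 0.

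The signalling partners of guidance receptors were read from the same model as a list of 75 genes, of which 71 were tested. They include repulsive guidance molecules, the collapsin response mediators and actin regulators. Averaged over the sexes 1 of the 71 partners passed, where 2.36% of all genes did. This was Vasp, an actin filament elongation factor, at a log2 fold change of 0.35 (SE 0.0854, FDR 0.0283). Its group means were 15.96 CPM in male sham, 20.98 in male SMC, 12.02 in female sham and 14.9 CPM for female SMC mice. No partner passed by edgeR in males, where 8 had an unadjusted p under 0.05 (5 higher and 3 lower, 11.3% against 11% of all genes). None passed in females either, where 10 did (5 higher and 5 lower, 14.1% against 12.5%). None passed for the difference between the sexes in the response. The median log2 fold change of the partners over both sexes was 0.01.

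Between the sexes 5 of the 71 partners passed, where 4.93% of all genes did. Vasp (log2 0.45, FDR 0.00213) and Gpc1, a heparan sulfate proteoglycan that binds Slits (0.33, FDR 0.0130), were higher in males. Mical2, an actin-oxidizing enzyme related to the plexin effector Mical1 (-0.62, FDR 0.0287), Farp2, a Rac activator bound to plexin-A receptors (-0.21, FDR 0.0165), and Cdc42, a regulator of cell polarity (-0.14, FDR 0.0401), were lower.

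Markers of vessels, nerve and fibre were read beside the guidance genes. Smooth muscle and pericyte markers were higher in SMC mice over both sexes in 6 of 6 genes, and 2 passed, Acta2 (log2 0.73, SE 0.139, FDR 0.00866) and Myh11 (0.57, SE 0.114, FDR 0.0112). Their summed level was 349 to 520 CPM in male sham, 503 to 554 in male SMC, 363 to 508 in female sham and 470 to 545 CPM for female SMC mice. Endothelial markers were higher in 7 of 8 genes and Schwann cell markers in 7 of 7, and none passed. The sums of the endothelial genes were 320 to 412 CPM in male sham, 321 to 497 in male SMC, 225 to 413 in female sham and 314 to 419 CPM for female SMC mice. Those of the Schwann cell genes were 47.6 to 98.2, 82.1 to 132, 65.8 to 181 and 84.8 to 190 CPM in the same order. For smooth muscle and endothelium, the lowest sum of each sham group came from male sham replicate 4 or female sham replicate 7. The smooth muscle sums of the other sham mice were 414 to 520 CPM. Acta2 and Myh11 were not fitted without the 2 libraries low in slow fibre markers. The part of these vessel and nerve markers in the rise of Sema6d, Plxna1 and Plxnd1 was not tested.

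Of 8 tested genes of the neuromuscular junction and denervation, 4 were higher and 4 lower over both sexes, with a median log2 fold change of -0.007. The 1 gene to pass was Musk, the receptor kinase that clusters acetylcholine receptors, at -0.58 (SE 0.149, FDR 0.0380). Its group means were 86.3 CPM in male sham, 52.3 in male SMC, 38.1 in female sham and 28.0 CPM for female SMC mice. The summed level of this list was 210 CPM in male sham replicate 4 and 124 to 140 CPM in the other male sham mice. Among female sham mice it was highest in replicate 7, at 125 CPM. Musk was not fitted without these libraries, here or between the sexes. The slow fibre list had a median log2 fold change of 0.57 over both sexes with 9 of 10 genes higher, and of 0.33 with 7 of 10 higher without male sham replicate 4 and female sham replicate 7, both of them sham libraries, a fit of this list chosen after seeing the data. No gene of the fast fibre, slow fibre, fibroblast, macrophage, tendon, satellite cell, adipocyte or neuron lists passed in a housing comparison. Between the sexes Musk was higher in males (1.04, FDR 8.04e-05). Myog (-0.81, FDR 0.0378), Gadd45a (-0.64, FDR 0.0130), the satellite cell gene Megf10 (-0.45, FDR 0.0195) and the adipocyte gene Retn (-1.76, FDR 0.0281) were lower. Of the 5 satellite cell genes, 3 were higher and 2 lower in males, with a median log2 difference of 0.16. All 5 adipocyte genes were lower in males, and of the 8 junction and denervation genes 3 were higher and 5 lower.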

How the data were processed

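The authors deposited raw read counts per gene, 1 column for each of 24 libraries, not normalized. RNA was total RNA, depleted of ribosomal RNA and made into libraries with a directional kit. The submitters' processing notes name cutadapt 1.16, STAR 2.7.9a, featureCounts 1.6, DESeq2 1.34.0 and the builds GRCm39 and mm39, and the strand setting and annotation release are not given in the sources used here. Gene names, biotypes and exon lengths were matched by Ensembl ID to GENCODE M21, which named 52083 of 55416 IDs, and IDs without a name held 0.361% of counts.

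Groups came from the sample titles. Counts were fitted with edgeR 4.0.16 (R 4.3.3) by quasi-likelihood, with TMM normalization, filterByExpr and 1 mean per group over all 24 libraries, which kept 16408 genes. Tests were two-sided, and FDR is the Benjamini-Hochberg value over all tested genes, called under 0.05. CPM are counts per 1000000 of TMM-scaled library size. Mice of a group are separate animals. A test of the code on simulated counts is summarised in the closing section.

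Named genes were those past the FDR, up to 6 with the smallest p under 0.05 per comparison, the 5 with the highest level per kb, and called genes of the partner and marker lists. Ephb1, Sema6b, Ephb4, Efnb2, Nrp1, Robo4, Slit3, Ephb3, Sema3d, Robo2, Plxnb1 and Efna3 were named after their values were seen. The guidance genes and all lists were chosen with earlier results of these data known. Alternatives were DESeq2 1.42.0, limma 3.58.1 voom with quality weights, other size factors and filters, fits within a sex or housing, and fits without single libraries.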

Additional observations from a re-analysis of the deposited data

Results flagged for a closer look

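Within groups of 6, the highest or lowest mouse was set against the rest by Dixon's test at its 95% value. Chance alone meets this value in about 1 of 20 groups. The test was run for the guidance genes named by FDR, smallest p or level. Those named after their values were seen were not included. Of 76 groups 8 met the value, and the genes were picked with the same data. Female sham replicate 11 was the highest of its group for Epha1 (8.94 CPM, others at most 0.447), Ephb6 (14.1 CPM, others at most 1.70) and Efna5 (5.42 CPM, others at most 1.32), and this is the mouse that held skin keratins. The part of skin RNA was not tested.

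Male sham replicate 4, which had little slow fibre RNA, was lowest for Sema6c (49.0 CPM, others at least 84.7), and female sham replicate 7, the other such library, was lowest for Ephb2 (0.585 CPM, others at least 0.893). Male SMC replicate 17 was highest for Plxnd1 (98.1 CPM, others at most 82.4). Female SMC replicate 22 was highest for Plxnb3 (3.44 CPM, others at most 2.26), and female SMC replicate 23 was lowest for Sema6a (21.1 CPM, others at least 25.2).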

How the results depend on the processing

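The number of guidance genes past the FDR was recomputed under each alternative. In males it was 0, and it was 2 by DESeq2, 1 by limma and 0 to 1 without single libraries (1 without male sham replicate 5, where Plxna1 passed). In females it was 1, and it was 0 by limma, 0 in the 12 female libraries alone, 0 to 1 without single libraries, and 0 without the 2 libraries of low slow fibre score and the one with skin keratins, an alternative chosen after seeing the data. Over both sexes it was 3, 5 by DESeq2, 2 with no filter, 2 without both libraries of low slow fibre score, 2 without all 3 libraries, and 2 to 5 without single libraries (5 without female sham replicate 9). For the sex difference in the response it was 0 throughout. Between the sexes it was 1, and it was 0 in SMC mice alone, 3 by DESeq2, 2 by limma, 1 to 4 without single libraries (4 without female sham replicate 7), 4 without both libraries of low slow fibre score and 3 without these and the one with skin keratins. DESeq2 gave no p for Epha1 and Ephb6. Over all genes edgeR called 0, 56, 388, 0 and 809 in these 5 comparisons, DESeq2 133, 268, 778, 1 and 1102, and limma 93 in males, 16 in females and 1420 between the sexes. With no filter 189 genes were called over both sexes. Without both libraries of low slow fibre score 155 were called in females, 526 over both sexes and 1268 between the sexes. Without all 3 it was 98 in females, 440 over both sexes and 1129 between the sexes. The 12 female libraries alone gave 14, and SMC mice alone 169 between the sexes. Without male sham replicate 5, 78 of all genes were called in males. It was 501 over both sexes without female sham replicate 9, and 1029 between the sexes without female sham replicate 7.

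Of the named genes under each alternative, 753 values kept their direction and side of the threshold, 41 lost and 25 gained significance, and 3 reversed. The female log2 fold change ranged from -2.67 to 0.16 for Epha1 and from -1.39 to 0.063 for Ephb6 without single libraries, above 0 only without female sham replicate 11, and was 0.11 for Ephb6 without the 3 libraries. No paired analysis was possible because the labels share no replicate number between groups.

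In simulated counts of 16230 genes edgeR recovered 42.3% of changes of 0.5 on the log2 scale in males, 39.2% in females and 64.9% over both sexes, and 72.7%, 74.7% and 90.9% of changes of 1. Of its calls, 3.42% in males, 8.2% in females and 6.71% over both sexes fell on unchanged genes. Each changed gene had the same change in both sexes, which favours the averaged comparison. No library was set apart from its group, unlike in these data.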
